A study of Mus musculus with 10 samples.

Results

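Mammary macrophages and mammary epithelial cells (MECs) of wild-type (WT) mice were compared by RNA sequencing, so that the contrast is one of cell identity and not of genotype. The members are the 4 WT libraries among the 10 libraries of the series, chosen by their labels: WT macrophages 4 and 5 and WT MEC 1 and 3, with 2 libraries per cell type. The raw counts of both cell types were joined by Ensembl gene identifier, and 16710 genes of at least 300 nt with over 1 CPM (counts scaled to a fixed library total) in at least 2 of the 4 libraries were tested.

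The study deleted *Cebpb*, which encodes the transcription factor C/EBPβ, in macrophages with a Cre transgene under the *Csf1r* promoter. WT mice were Csf1r-Cre neg; *Cebpb* fl/fl, so they carried the floxed alleles without Cre. The *Cebpb* dM mice were Csf1r-Cre pos; *Cebpb* fl/fl, their libraries are labeled C/EBPb knockdown, and they serve below only as other libraries for the same contrast. All mice were 10-wk-old females in diestrus, backcrossed to BALB/c.

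Both cell types came from mammary glands without lymph nodes. MECs were digested with collagenase A, enriched as organoids by differential centrifugation, dissociated with trypsin and passed through a kit that removes cells with markers of other lineages. Macrophages were released by a shorter collagenase digestion, freed of red blood cells and selected with a kit for F4/80, the product of *Adgre1*. A high level of *Adgre1* in macrophages was therefore set by the selection. Cell type, digestion, selection and the table that held the counts changed together, and their parts in any difference cannot be told apart. These are bulk libraries, in which fewer cells of a type and less RNA per cell cannot be told apart either.

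Tissue macrophages are phagocytes that take up dying cells and debris, break them down in lysosomes and present antigen on major histocompatibility complex (MHC) class II molecules. In the mammary gland they lie along the ducts and in the surrounding stroma, and depend on signaling through the CSF1 receptor. The mammary epithelium is a bilayer of luminal cells, some of which carry the estrogen and progesterone receptors, and of contractile basal cells that rest on the basement membrane. Luminal and basal cells are told apart by their keratins.

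The macrophage libraries held 18430304 and 20174722 counts and the MEC libraries 26607986 and 25986509. At these depths 3 counts, taken as the floor of a library, equal 0.113 to 0.163 CPM, and intervals of counting error cover counting only. Mitochondrial genes held between 1.23% and 1.75% of counts. Across genes, Pearson's *r* of log2 CPM was 0.954 between the macrophage libraries, 0.986 between the MEC libraries and 0.815 to 0.856 between cell types. Levels below are CPM after TMM scaling (trimmed mean of M-values). Single genes are ranked by level only as TPM, which divide by gene length before scaling to the library. Summed levels of lists, and the parts of single genes in them, are in CPM without regard to gene length. Long and highly counted genes weigh more in these sums. Log2 fold changes are macrophages over MECs, with their standard error (SE). The quasi-likelihood (QL) test of edgeR was used, and a gene was called where its *P*, adjusted by Benjamini–Hochberg across the 16710 genes, was at most 0.05. Nothing states that libraries came from separate animals, so *P* values measure the spread between these libraries. A single exact permutation test of 2 libraries against 2 cannot go below 0.333.

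Of the 16710 genes, 2708 (16.2%) were called higher in macrophages and 2003 (12%) higher in MECs, while 11999 were not called. A log2 difference of at least 5 was reached by 404 genes called higher in macrophages and 88 called higher in MECs. Of these, 356 and 82 passed the filter only through the cell type in which they were high, as did 1066 and 358 of all genes tested, so that such genes had to differ. Among genes over 1 CPM in each cell type, 1947 were called higher in macrophages and 1583 in MECs. At least 2 on the log2 scale was reached by 1537 called genes higher in macrophages and 596 higher in MECs. The median log2 fold change of all genes tested was 0.03 with quartiles of -0.53 and 0.71. Without WT MEC 1 they fell to 1423 and 989, without WT MEC 3 to 1340 and 990, and without WT macrophages 4 they were 3821 and 3392. Scaling by library totals alone moved the median to 0.20 and the share of calls on the macrophage side from 57.5% to 68.8% (3302 and 1495 calls).

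**Figure D1:**
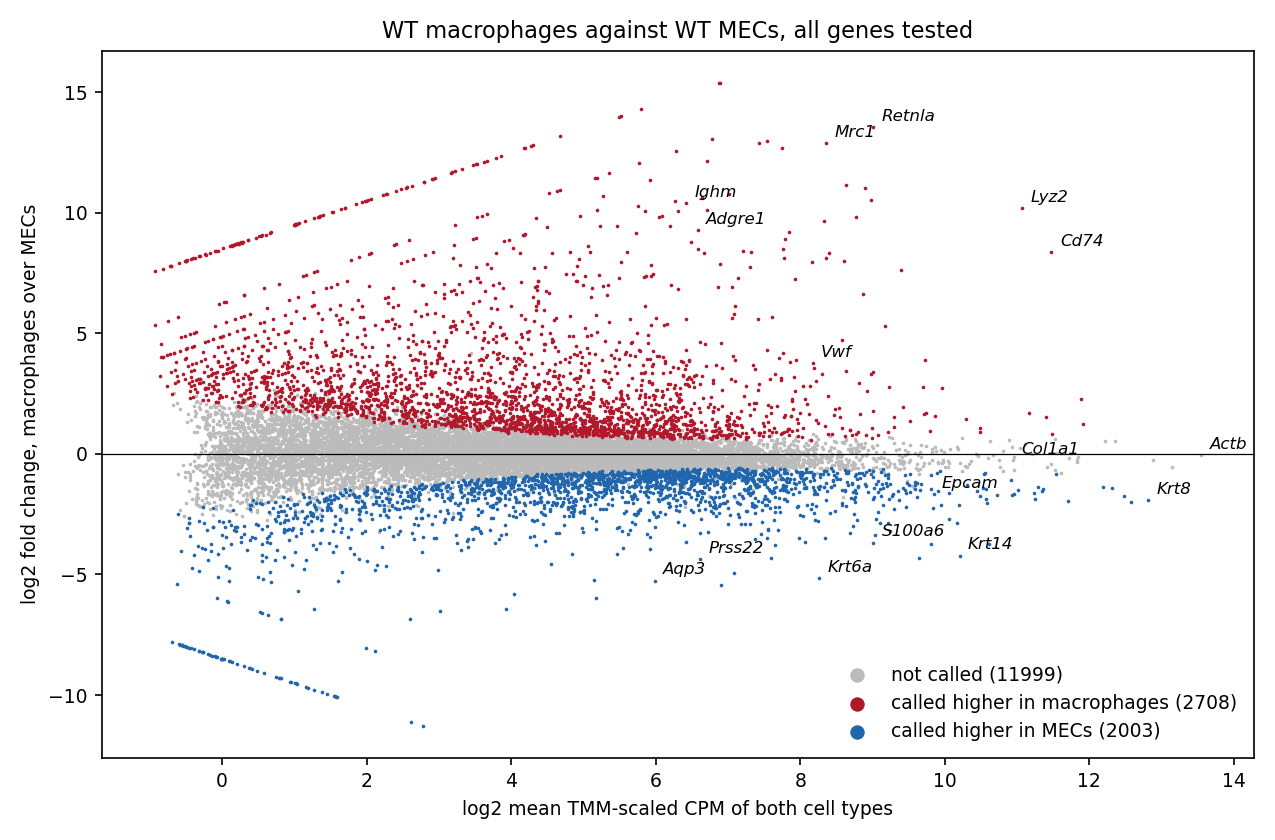
Log2 fold change of macrophages over MECs (y axis) against the log2 mean TMM-scaled CPM of both cell types (x axis) for the 16710 genes tested, with 2708 genes called higher in macrophages in red, 2003 called higher in MECs in blue and 11999 not called in grey. Points on the straight outer lines are genes with 0 counts in both libraries of one cell type (105 genes in MECs, 60 in macrophages), whose fitted fold change is not a measured size.

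The labels were first checked against the markers *Adgre1*, *C1qc*, *Krt8*, *Krt18* and *Epcam*. *Adgre1* (ENSMUSG00000004730; GRCm38 chromosome 17, 57358691 to 57483527) encodes the F4/80 antigen. Its level was 177 and 205 CPM in macrophages 4 and 5 and 0.521 and 0.0819 CPM in MEC 1 and 3. *C1qc* (ENSMUSG00000036896; chromosome 4, 136889804 to 136893065), a chain of the complement component C1q, was at 344 and 572 CPM in macrophages and at 0.842 and 0.696 CPM in MECs. Both genes were near the floor in MECs and high in both macrophage libraries, with log2 fold changes of 9.27 ± 0.44 (SE, adjusted *P* = 1.09e-05) for *Adgre1* and 9.21 ± 0.42 (SE, adjusted *P* = 1.07e-05) for *C1qc*.

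The epithelial markers were on both sides. *Krt8* (ENSMUSG00000049382; chromosome 15, 101996698 to 102004482), a luminal keratin, was at 9727 and 13003 CPM in MECs and still at 2797 and 3215 CPM in macrophages. *Krt18* (ENSMUSG00000023043; chromosome 15, 102028180 to 102032027), its partner in the luminal keratin filament, was at 7487 and 10039 CPM in MECs and at 2704 and 2554 CPM in macrophages. *Epcam* (ENSMUSG00000045394; chromosome 17, 87635979 to 87651129), an epithelial adhesion molecule, was at 946 and 1850 CPM in MECs and at 464 and 419 CPM in macrophages. The groups did not overlap for any of these genes. Over all genes tested, all macrophage levels were above all MEC levels for 34.6% and below them for 32%. The log2 fold changes were -1.92 ± 0.31 (SE, adjusted *P* = 0.00354) for *Krt8*, -1.74 ± 0.30 (SE, adjusted *P* = 0.00437) for *Krt18* and -1.66 ± 0.33 (SE, adjusted *P* = 0.00787) for *Epcam*. Thus *Adgre1* and *C1qc* were at or near 0 in MECs, while keratin RNA was abundant in both macrophage libraries.

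The same holds per gene length. *Krt18*, *Krt8* and *Krt19* ranked 14, 17 and 18 among all genes by mean TPM in macrophages, at 5535 ± 214, 4645 ± 465 and 4496 ± 52.0 TPM (SD, n = 2). In MECs they ranked 2, 4 and 7, at 15492 ± 3111, 14746 ± 2931 and 10136 ± 1834 TPM (SD, n = 2). *Lyz2* (lysozyme) at 9871 ± 1192 TPM and *Cd74* (the MHC class II invariant chain) at 10236 ± 1917 TPM (SD, n = 2) ranked 5 and 4 in macrophages, and 9741 and 4855 in MECs. Summed over the 18 genes of the epithelial identity list, the macrophage libraries held 11435 and 11275 CPM and the MEC libraries 33323 and 41203 CPM, so that the mean in macrophages was 30.5% of that in MECs. The 17 genes of the macrophage identity list summed to 8773 and 9673 CPM in macrophages and to 317 and 389 CPM in MECs, or 3.83% of the macrophage mean. The part that epithelial RNA in the macrophage libraries has in the size of each fold change was not tested.

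**Figure D2:**
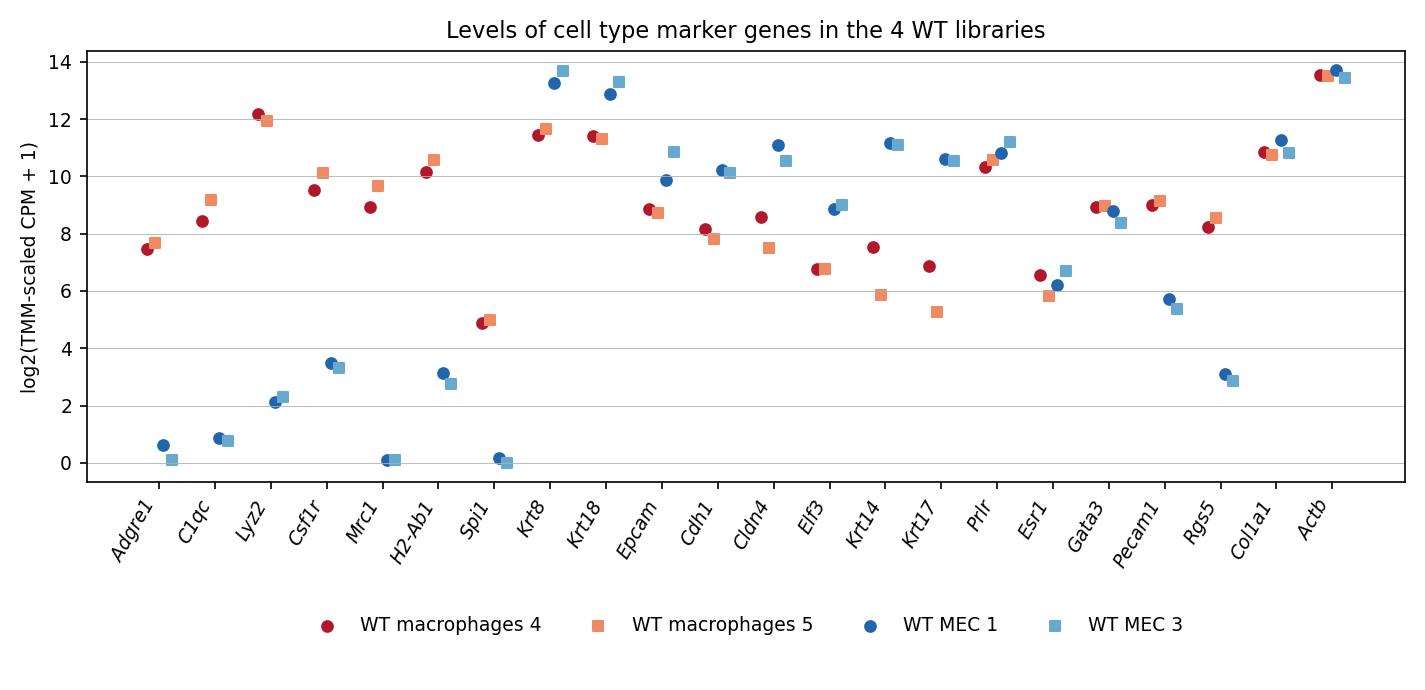
Level of 22 marker genes as log2(TMM-scaled CPM + 1) on the y axis in the 2 macrophage libraries (red and orange) and the 2 MEC libraries (dark and light blue), 1 point a library. *Adgre1* and *C1qc* are near 0 in MECs (at most 0.842 CPM) and high in macrophages, while *Krt8* and *Krt18* are high in all 4 libraries (at least 2554 CPM).

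All 17 genes of the macrophage identity list were tested and called higher in macrophages, with a median log2 fold change of 8.39 beside 0.03 over all genes tested. Of the 17, 12 passed the filter through macrophages alone, where they had to be higher, so that the count and the median only describe the list. The list's genes encode surface receptors (*Csf1r*, *Cx3cr1*, *Fcgr1*), signaling adaptors (*Tyrobp*, *Fcer1g*) and phagocyte proteins (*Lyz2*, *Cd68*). *Csf1r*, the receptor on which macrophages depend, was at 744 and 1110 CPM in macrophages and at 10.1 and 8.84 CPM in MECs (log2 fold change 6.61 ± 0.32, adjusted *P* = 1.15e-05). *Lyz2* was at 4667 and 3922 CPM in macrophages and at 3.37 and 3.97 CPM in MECs (log2 fold change 10.19 ± 0.37, adjusted *P* = 5.04e-06). The smallest difference was that of *Cd14*, the coreceptor for bacterial lipopolysaccharide, at 489 and 635 CPM in macrophages and at 278 and 353 CPM in MECs (log2 fold change 0.83 ± 0.23, adjusted *P* = 0.0303). This call was lost without macrophages 5 (log2 fold change 0.61) and without MEC 1 (0.67). *Cd14* alone made up most of the 317 and 389 CPM that this list reached in MECs. *Mertk*, which binds dying cells through the bridging proteins GAS6 and PROS1, had the next smallest difference, at 23.8 and 47.6 CPM against 13.9 and 9.79 CPM.

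Of 15 markers of stromal LYVE1+ macrophages, 14 were higher in macrophages and 1, *Gas6*, was not called. Of the 15, 6 passed the filter through macrophages alone. *Mrc1*, the mannose receptor CD206, was at 489 and 818 CPM in macrophages and at 0.0802 and 0.0819 CPM in MECs, which is 2 counts in each MEC library (log2 fold change 12.88 ± 0.49, adjusted *P* = 1.57e-06). *Lyve1*, the hyaluronan receptor that names the population, differed between the macrophage libraries, with 120 CPM in macrophages 4 and 343 CPM in macrophages 5, and was at 1.56 and 2.21 CPM in MECs. *Timd4*, a receptor for phosphatidylserine, had 38.0 and 41.0 CPM in macrophages and 0 counts in both MEC libraries, at least 325-fold higher against the floor. The scavenger receptor genes *Cd163* and *Stab1*, the lectin genes *Cd209f* and *Cd209g* and the coagulation factor gene *F13a1* all had log2 fold changes between 5.78 and 12.98. *Gas6* itself was abundant in both cell types, at 377 and 585 CPM in macrophages and at 456 and 516 CPM in MECs, and the groups overlapped. *Folr2* was also called higher (360 and 464 CPM against 27.8 and 17.6 CPM), but 63.1% of its exon bases overlap a gene on the opposite strand.

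Of 13 markers of ductal macrophages and MHC class II presentation, 12 were higher in macrophages, 4 of which passed the filter through macrophages alone. *H2-Ab1*, a class II beta chain, was at 1141 and 1537 CPM in macrophages and at 7.86 and 5.77 CPM in MECs (log2 fold change 7.62 ± 0.33, adjusted *P* = 8.78e-06). *Ciita*, the transactivator of class II genes, was at 30.3 and 36.7 CPM and at 1.89 and 1.31 CPM (log2 fold change 4.39 ± 0.36, adjusted *P* = 0.000141). *Itgax*, the CD11c integrin, was the reverse of *Lyve1* between the macrophage libraries, with 39.0 CPM in macrophages 4 and 17.4 CPM in macrophages 5. The remaining gene, the tetraspanin *Cd9*, was higher in MECs, at 1852 and 1991 CPM against 1293 and 848 CPM (log2 fold change -0.84 ± 0.27, adjusted *P* = 0.0487). The call of *Cd9* was lost without scaling (log2 fold change -0.67), with thinned counts (-0.84), with over 1 CPM in each cell type (-0.80), and without macrophages 5 (-0.60), MEC 1 (-0.90) or MEC 3 (-0.79). For MHC class I presentation, the 11 tested genes were not called by the QL test (0 calls, with 2 at an unadjusted *P* under 0.05, against 1 call each by the likelihood ratio test and DESeq2), and *B2m*, the light chain of every class I molecule, was at 1786 and 1159 CPM in macrophages and at 813 and 1072 CPM in MECs. *H2-L* has no entry in the count tables.

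Receptors for antibody, complement and microbes followed in part. All 7 tested of 8 Fc receptor genes were higher in macrophages, among them *Fcgr3* at 161 and 238 CPM against 0.0401 and 0.205 CPM, and *Fcrls*, which had 179 and 294 CPM in macrophages and 0 counts in both MEC libraries, at least 1944-fold higher against the floor. *Fcer1a* was below the filter. Of 19 complement genes 18 were tested, 13 were higher in macrophages and none in MECs. Of the tested genes, 5 Fc receptor and 9 complement genes passed the filter through macrophages alone. *C5ar1*, the receptor for the anaphylatoxin C5a, was at 145 and 372 CPM against 0.281 and 0 CPM. *C3*, the central component, was not called by the QL test but was by DESeq2, and MEC 1 with 216 CPM stood far above MEC 3 with 82.9 CPM, both below the macrophages with 313 and 297 CPM. *Serping1* (the C1 inhibitor), *Cd55* and *Cd59a*, which restrain complement on cell surfaces or in plasma, were also not called.

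Of 15 genes of Toll-like receptors and their adaptors 14 were tested, 3 of which passed the filter through macrophages alone, and 6 were higher in macrophages. They include the receptors for nucleic acids *Tlr7* (10.7 and 26.6 CPM) and *Tlr8* (13.6 and 32.1 CPM), both with 0 counts in MECs and at least 153-fold and 188-fold higher against the floor, and *Tlr13* (16.9 and 45.4 CPM against 0 and 0.123 CPM). *Tlr9* was below the filter. In contrast, *Tlr2* and *Tlr4*, which sense bacterial lipoprotein and lipopolysaccharide, and the adaptor *Myd88* were not called. *Tlr4* was at 24.4 and 34.4 CPM in macrophages and at 32.8 and 25.9 CPM in MECs, with overlapping groups. *Myd88* was at 205 and 187 CPM in macrophages and at 193 and 233 CPM in MECs.

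Of 17 genes of apoptotic cell uptake, 16 were tested, 11 were higher in macrophages and 1 in MECs. Of the 16, 3 passed the filter through macrophages alone. The phosphatidylserine receptors *Timd4*, *Stab1*, *Stab2* and *Cd300lb*, the scavenger receptor *Cd36* and the engulfment genes *Elmo1* and *Dock2* were higher in macrophages, as were the receptor kinases *Mertk* and *Axl* and the bridging protein *Pros1* (210 and 335 CPM against 148 and 160 CPM). *Cd36* was at 931 and 1330 CPM against 30.0 and 26.8 CPM (log2 fold change 5.32 ± 0.29, adjusted *P* = 2.02e-05). *Mfge8*, another bridging protein, was the gene higher in MECs, at 2638 and 2162 CPM against 669 and 626 CPM (log2 fold change -1.89 ± 0.24, adjusted *P* = 0.00108). Integrin *Itgb3* was higher in macrophages, while *Itgav*, whose product pairs with it, was at 45.9 and 50.8 CPM against 55.7 and 56.6 CPM and was not called. The calls of *Mertk*, *Axl*, *Pros1* and *Itgb3* were each lost in at least 1 fit with a library left out.

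The lysosome was shared between the cell types, but not evenly. Of 25 genes for hydrolases and membrane proteins, all tested, 14 were higher in macrophages, 2 in MECs and 9 were not called, with a median of 0.80. Cathepsin S (*Ctss*), which trims the class II invariant chain, was nearly absent from MECs, at 431 and 444 CPM against 1.20 and 1.92 CPM (log2 fold change 8.12 ± 0.31, adjusted *P* = 5.38e-06). Legumain (*Lgmn*), hexosaminidase A (*Hexa*) and cathepsin C (*Ctsc*) had log2 fold changes of 3.39, 3.18 and 3.03. Cathepsin L (*Ctsl*) was higher in MECs, at 1007 and 1050 CPM against 371 and 361 CPM (log2 fold change -1.49 ± 0.20, adjusted *P* = 0.00152), as was the tetraspanin *Cd63* (log2 fold change -1.60 ± 0.21, adjusted *P* = 0.00134). 26.8% of the exon bases of *Ctsl* overlap an opposite-strand gene. Cathepsin D (*Ctsd*) and *Lamp2* were abundant on both sides and not called, *Ctsd* at 1067 and 858 CPM in macrophages and at 859 and 831 CPM in MECs.

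Chemokine genes were called in both directions. Of 23 genes 21 were tested, 14 were higher in macrophages, 5 in MECs and 2 (*Ccl5* and *Cxcl1*) were not called. Of the 21, 6 passed the filter through macrophages alone and 1 through MECs alone, where they had to be higher. *Ccl6* was at 571 and 1020 CPM in macrophages and at 0.281 and 0.409 CPM in MECs (log2 fold change 11.15 ± 0.50, adjusted *P* = 1.03e-05). *Ccl24*, which attracts eosinophils, had 85.5 and 94.2 CPM in macrophages and 0 counts in both MEC libraries, at least 739-fold higher against the floor. The genes higher in MECs were *Cxcl14*, *Cxcl5*, *Cx3cl1*, *Cxcl15* and *Cxcl16*. The calls of *Cxcl5*, *Cxcl15* and *Cxcl16* were each lost in at least 1 fit with a library left out. *Cxcl14* was at 301 and 382 CPM in MECs and at 33.1 and 27 CPM in macrophages (log2 fold change -3.51 ± 0.24, adjusted *P* = 5.80e-05). *Cxcl1*, which attracts neutrophils, was at 290 and 226 CPM in macrophages and at 315 and 195 CPM in MECs, with overlapping groups. *Ccl20* and *Ccl28* were below the filter.

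The fold changes of transcription factors of the myeloid lineage differed by orders of magnitude from one another. Of 18 genes 17 were tested, 3 of which passed the filter through macrophages alone, and 12 were higher in macrophages. *Spi1*, which encodes the lineage factor PU.1, was at 28.4 and 31.1 CPM in macrophages and at 0.120 and 0 CPM in MECs, or 3 counts over both MEC libraries (log2 fold change 8.81 ± 0.64, adjusted *P* = 2.23e-05). *Irf8*, *Irf5*, *Maf*, *Zeb2* and *Ikzf1* had log2 fold changes between 1.91 and 4.02. *Runx1* was the gene higher in MECs, at 201 and 225 CPM against 95.3 and 120 CPM (log2 fold change -0.98 ± 0.21, adjusted *P* = 0.0110), a call lost without MEC 3 (log2 fold change -0.90). *Klf4*, *Klf2*, *Cebpd* and *Mitf* were not called, and *Klf4* had overlapping groups of 106 and 173 CPM against 114 and 179 CPM.

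The C/EBP family was of interest because the study deleted one member. *Cebpb* itself was below the filter, with 13 and 15 counts in macrophages (0.657 and 0.714 CPM) and 25 and 28 counts in MECs (1.0 and 1.15 CPM), so that it was not tested. 20.7% of its exon bases overlap *Tmem189* on the opposite strand. The study reported high *Cebpb* RNA in *Csf1r*+ mammary cells of FVB mice by single-cell sequencing. By immunostaining it found the protein in CSF1R+ cells and in the epithelium. The low counts here are therefore not read as absence of *Cebpb* RNA, and their cause was not tested. Of the 6 tested genes of the C/EBP list, *Cebpa*, the early myeloid factor, was higher in macrophages at 8.29 and 14.0 CPM against 3.81 and 4.79 CPM (log2 fold change 1.38 ± 0.41, adjusted *P* = 0.0401). That call was lost without macrophages 5 (log2 fold change 0.92), MEC 1 (1.22) or MEC 3 (1.55). *Cebpe*, a factor of granulocyte differentiation, had 1.57 and 3.24 CPM in macrophages and 0 counts in both MEC libraries, at least 19.8-fold higher against the floor. *Cebpd*, *Cebpg*, *Cebpz* and *Ddit3* were not called. *Cebpz*, which is in the list by its symbol, was at 43.7 and 38.6 CPM against 59.6 and 70.9 CPM (QL test, adjusted *P* = 0.0554). It was, however, called higher in MECs by the likelihood ratio test, by DESeq2, and by the QL test with 2 other scalings. *Cebpd* was at 16.0 and 18.6 CPM in macrophages and at 20.6 and 25.9 CPM in MECs.

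Promoter sequences (RefSeq, GRCm38.p6, from 250 bases before to 50 after each gene's start, 1 window per symbol) were available for 11389 of the tested genes and searched on both strands for 8 motifs. The PU.1 motif GAGGAAGT stood in 3.28% of all 27025 windows of the table and in 3.03% of those of tested genes. It stood in 5.84% of windows of genes called higher in macrophages, in 2.53% of those called higher in MECs and in 2.48% of those not called. Among macrophage genes with a log2 difference of at least 5 the share was 10.2% (29 of 285), against 1.44% (5 of 348) among MEC genes with a difference of at least 2. Sequences are given for a selection of list genes whose windows hold this motif, as they show where it stands, and 1 of them, *Areg*, is a gene higher in MECs. They are written 5′ to 3′ on the strand of the gene, with the motif in capitals, as GAGGAAGT or its reverse complement ACTTCCTC. They lie at chr4:136893066-136893164 (*C1qc*), chr1:171018842-171018919 (*Fcgr4*), chr5:90772365-90772434 (*Pf4*), chr5:64933564-64933641 (*Tlr1*), chr7:88277874-88278001 (*Ctsc*), chr15:3270526-3270653 (*Selenop*) and chr5:91139413-91139540 (*Areg*), with *C1qc* and *Tlr1* on the minus strand.
C1qc: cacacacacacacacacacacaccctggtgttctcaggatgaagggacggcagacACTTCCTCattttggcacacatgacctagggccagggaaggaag
Fcgr4: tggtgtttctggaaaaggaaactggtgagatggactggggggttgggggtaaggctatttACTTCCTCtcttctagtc
Pf4: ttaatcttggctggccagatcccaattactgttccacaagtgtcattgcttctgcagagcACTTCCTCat
Tlr1: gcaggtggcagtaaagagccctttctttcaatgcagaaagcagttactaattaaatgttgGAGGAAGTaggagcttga
Ctsc: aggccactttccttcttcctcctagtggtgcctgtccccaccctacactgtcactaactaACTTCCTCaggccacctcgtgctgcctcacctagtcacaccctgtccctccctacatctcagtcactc
Selenop: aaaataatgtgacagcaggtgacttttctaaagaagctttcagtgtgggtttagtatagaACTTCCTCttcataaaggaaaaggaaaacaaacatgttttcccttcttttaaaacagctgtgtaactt
Areg: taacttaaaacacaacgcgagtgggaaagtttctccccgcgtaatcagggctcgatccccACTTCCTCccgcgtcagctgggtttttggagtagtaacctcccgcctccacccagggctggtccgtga

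The first base of the motif lay between 10 bases (*Pf4*) and 195 bases (*C1qc*) before the RefSeq start used for the window, which for *C1qc* is not the Ensembl start given above. The interferon-stimulated response motif (ISRE) stood in 3.49% of all windows and 3.2% of those of tested genes, in 4.53% of those of macrophage genes, in 8.77% of those with a macrophage difference of at least 5 and in 2.90% of those of MEC genes. The C/EBP motif TTGCNNCAA stood in 2.12% of all windows and 1.71% of those of tested genes, in 1.96% for macrophage genes, 2.81% (8 of 285) for those with a difference of at least 5, and 2.23% for MEC genes. The grainyhead motif AACCNGTT, which is bound by the epithelial factors GRHL1 and GRHL2, stood in 2.01% of all windows and 1.83% of those of tested genes, in 1.69% for macrophage genes, 1.93% for MEC genes and 2.59% (9 of 348) for MEC genes with a difference of at least 2. The AP-2 motif GCCNNNGGC stood in 24.3% of windows of tested genes, 22.6% for macrophage genes and 23% for MEC genes, with 16.5% of all windows. Its share was 10.9% (31 of 285) at a macrophage difference of at least 5 and 18.1% (63 of 348) at a MEC difference of at least 2. The base composition of these windows was not compared. The TFE motif TCACGTGA stood in 1.78% of windows of tested genes, 1.36% for macrophage genes and 1.34% for MEC genes, with 1.01% of all windows. The FOXA motif TGTTTAC stood in 2.56%, 2.73% and 2.08%, with 3.55% of all windows, and the NF-κB motif in 0.193%, 0.273% and 0.223%, with 0.144% of all windows. At a macrophage difference of at least 5 the shares were 0.351% for TFE, 3.16% for FOXA and 0.702% for NF-κB. GRHL matches are shown for *Rab25* (chr3:88548314-88548441, minus strand), an epithelial trafficking gene higher in MECs, and *Cldn5* (chr16:18776767-18776846), an endothelial claudin gene higher in macrophages. A match is a run of letters in this window and not an observed binding site.
Rab25: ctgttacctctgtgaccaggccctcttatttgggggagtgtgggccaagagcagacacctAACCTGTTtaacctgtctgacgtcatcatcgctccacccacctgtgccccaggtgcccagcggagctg
Cldn5: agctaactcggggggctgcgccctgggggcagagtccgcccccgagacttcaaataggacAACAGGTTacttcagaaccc

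On the epithelial side, 16 of the 18 genes of the epithelial identity list, all tested, were called higher in MECs, with a median log2 fold change of -1.51. *Cdh1*, the adhesion molecule E-cadherin, was at 1209 and 1114 CPM in MECs and at 284 and 225 CPM in macrophages (log2 fold change -2.19 ± 0.23, adjusted *P* = 0.000427). *Cldn4*, a tight junction claudin, had the largest difference of the list, at 2188 and 1499 CPM against 385 and 179 CPM (log2 fold change -2.71 ± 0.39, adjusted *P* = 0.00212). *Esrp1*, a splicing regulator of epithelia, was not called, at 91.4 and 68.5 CPM in MECs and at 78.7 and 48.7 CPM in macrophages. *Prom1* was not called either, and there macrophages 5 with 221 CPM stood nearer to the MECs (282 and 266 CPM) than to macrophages 4 with 70.2 CPM. No gene of this list came near the floor in macrophages.

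The summed levels in macrophages differed between the lists of epithelial lineages. Basal and myoepithelial genes had the lowest, with 10 of 12, all tested, higher in MECs and a mean summed level in macrophages of 17.0% of that in MECs. *Krt14*, the basal keratin (ENSMUSG00000045545; chromosome 11, 100203162 to 100207548), was at 2297 and 2184 CPM in MECs, at 185 CPM in macrophages 4 and at 56.6 CPM in macrophages 5 (log2 fold change -4.22 ± 0.53, adjusted *P* = 0.00108). *Krt5*, *Krt17* and the smooth muscle gene *Cnn1* had log2 fold changes of -3.52, -4.32 and -3.78. The 3 basal keratins were all higher in macrophages 4 than in macrophages 5. *Acta2* (smooth muscle actin) was at 2826 and 2082 CPM against 711 and 498 CPM (log2 fold change -2.02 ± 0.28, adjusted *P* = 0.00185). *Trp63*, the basal transcription factor, and *Mylk* were not called. *Acta2* alone held 604 of the list's mean 1358 CPM in macrophages and 2454 of 7970 CPM in MECs. By gene, the macrophage mean was at most 8.71% of the MEC mean for the basal keratins and 7.3% for *Cnn1*. It was 24.6% for *Acta2*, 50.9% for *Trp63*, 58.5% for *Myh11* and 79.35% for *Mylk*. All genes of the pericyte list were higher in macrophages, and the part of pericyte RNA in the basal sum was not tested.

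Luminal progenitor and alveolar genes followed, with 8 of 10 tested genes higher in MECs, 2 (*Cd14* and *Hey1*) higher in macrophages, and a summed level of 29.5%. Without *Cd14*, which is also in the macrophage identity list, that level was 21.0%. *Aldh1a3*, a retinaldehyde dehydrogenase of luminal progenitors, was at 459 and 536 CPM against 32.2 and 45.8 CPM (log2 fold change -3.67 ± 0.26, adjusted *P* = 6.28e-05). *Ltf* (lactoferrin) was at 695 and 1495 CPM in MECs and at 90.7 and 147 CPM in macrophages. *Csn2* and *Wap*, milk protein genes of lactation, were below the filter in these nonlactating glands, with at most 0.802 CPM in any library.

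Hormone-sensing luminal genes had the highest. Of 12 genes 11 were tested. Of these, 3 (*Areg*, *Ly6a* and *Pgr*) were higher in MECs, beside 12% of all genes tested, and none in macrophages. The summed level in macrophages was 57.3% of that in MECs. *Prlr* alone held 1403 of the mean 2410 CPM in macrophages and 2067 of the mean 4206 CPM in MECs. *Pgr*, the progesterone receptor, was at 76.6 and 86.3 CPM in MECs and at 39.7 and 41.9 CPM in macrophages (log2 fold change -1.0 ± 0.21, adjusted *P* = 0.01), a call lost without MEC 3 (log2 fold change -0.91) and in a fit of all 10 libraries (-0.97). *Esr1*, the estrogen receptor, was at 73.0 and 102 CPM in MECs and at 93.3 and 56.0 CPM in macrophages, with overlapping groups. *Prlr*, the prolactin receptor, was at 1784 and 2350 CPM in MECs and at 1295 and 1511 CPM in macrophages and was not called by the QL test (log2 fold change -0.56 ± 0.25, adjusted *P* = 0.134), but was by DESeq2. *Tnfsf11*, which encodes the progesterone target RANKL, was below the filter, with 13.3 CPM in macrophages 4, 0.321 CPM in MEC 1 and 0 counts in the other libraries. The lists were not tested against each other.

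**Figure D3:**
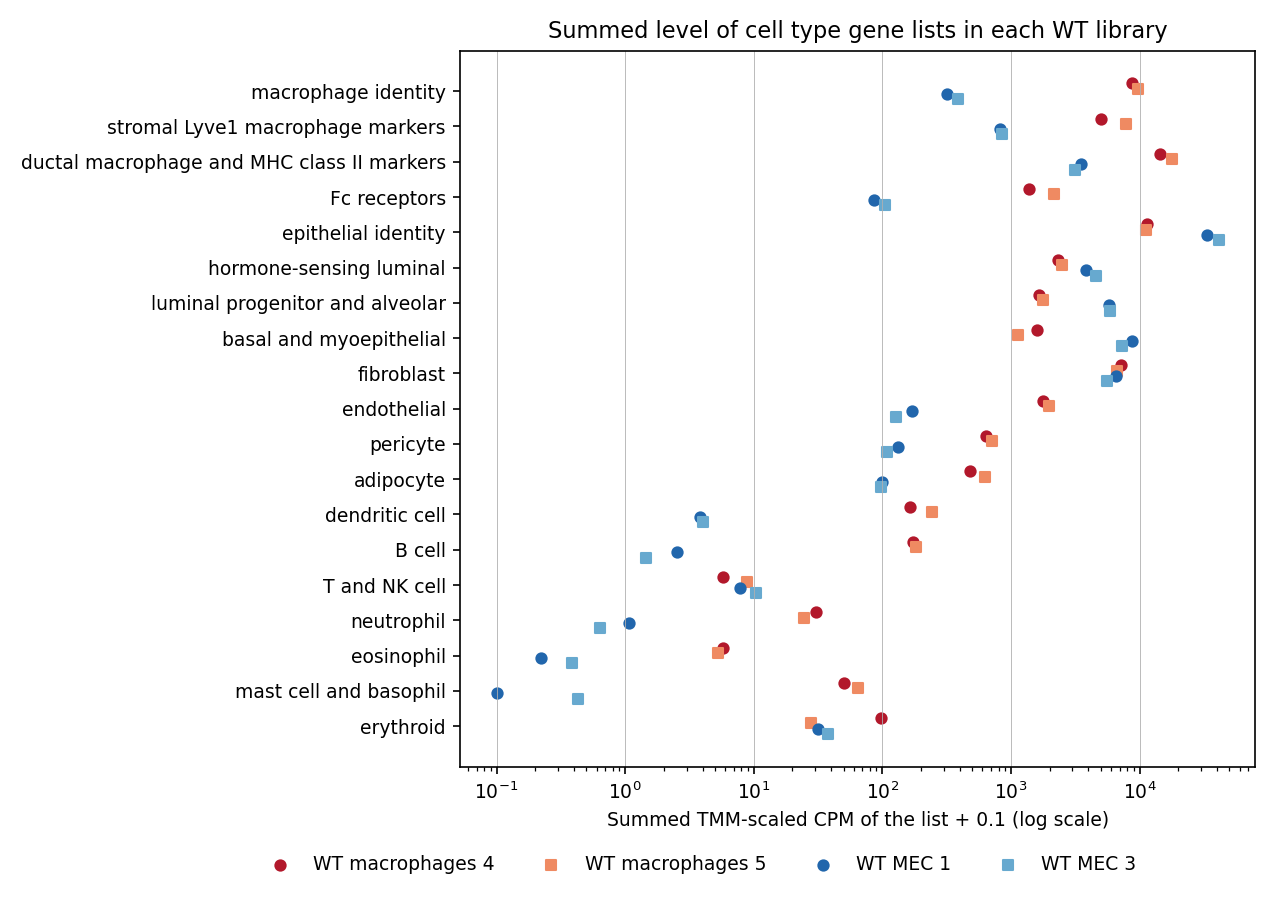
Summed TMM-scaled CPM (plus 0.1, log axis) of the genes of 19 cell type lists in each of the 4 libraries, 1 point a library. Macrophage, Fc receptor, endothelial and pericyte lists are to the right in the macrophage libraries (red and orange), epithelial, luminal and basal lists in the MEC libraries (blue), and the fibroblast lists of all 4 libraries lie between 5548 and 7138 CPM.

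Of 20 transcription factor genes of the mammary epithelium, 19 were tested, 10 were higher in MECs and 1 (*Stat5b*) in macrophages. *Elf3*, an ETS factor of epithelia, was at 465 and 509 CPM in MECs and at 109 and 107 CPM in macrophages (log2 fold change -2.17 ± 0.20, adjusted *P* = 0.000226). *Sox10*, *Sox9*, *Tfap2a*, *Tfap2c* and *Elf5*, the alveolar factor, had log2 fold changes between -1.94 and -1.14. *Gata3*, the luminal factor, was not called, at 446 and 333 CPM in MECs and at 492 and 505 CPM in macrophages. *Foxa1*, its partner at hormone-responsive enhancers, was also not called, at 19.9 and 20.1 CPM against 15.7 and 15.9 CPM. *Foxi1* differed more within macrophages than between cell types, at 0.202 CPM in macrophages 4, 26 CPM in macrophages 5 and 11.9 and 10.9 CPM in MECs. It was not called with all libraries, and without macrophages 5 it was called higher in MECs (log2 fold change -5.80) and without macrophages 4 higher in macrophages (1.19).

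Of 30 genes of cell junctions and adhesion to the basement membrane, all tested, 23 were higher in MECs, 1 in macrophages and 6 were not called, with a median of -1.48. The genes belong to tight junctions (*Cldn1*, *Ocln*, *Marveld2*), desmosomes (*Pkp1*, *Pkp3*, *Jup*, *Dsp*) and hemidesmosomes with their laminin (*Col17a1*, *Lamb3*). *Cldn1* was at 176 and 179 CPM in MECs and at 24.9 and 12.1 CPM in macrophages (log2 fold change -3.26 ± 0.34, adjusted *P* = 0.000438). *Lamb3* was at 304 and 187 CPM against 41.2 and 37.8 CPM (log2 fold change -2.64 ± 0.28, adjusted *P* = 0.000462). The scaffold gene *Tjp1* (ZO-1) was the one higher in macrophages, at 72.8 and 98.1 CPM against 47.6 and 50.6 CPM (log2 fold change 0.80 ± 0.23, adjusted *P* = 0.0335), a call lost in a fit of all 10 libraries (log2 fold change 0.83) and without macrophages 5 (0.54), MEC 1 (0.75) or MEC 3 (0.84). The gap junction gene *Gja1* was at 462 and 479 CPM against 437 and 428 CPM and was not called.

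**Figure D4:**
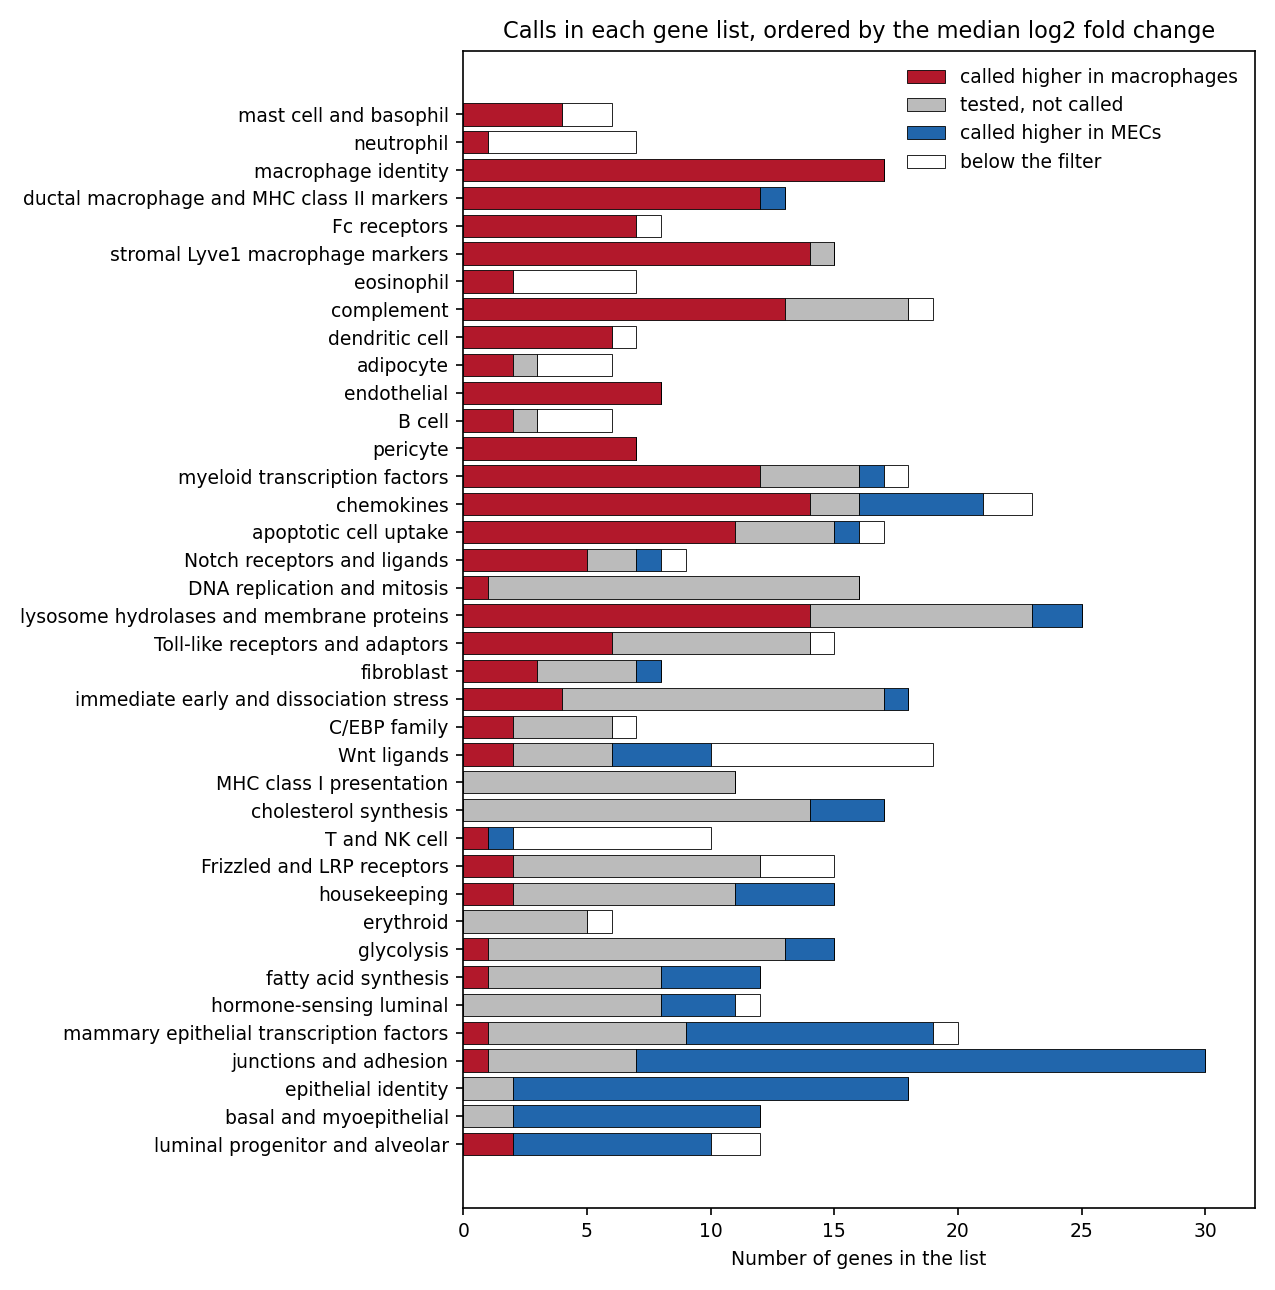
Number of genes (x axis) called higher in macrophages (red), tested and not called (grey), called higher in MECs (blue) and below the filter (white) in each of the gene lists (y axis), ordered by the median log2 fold change of the genes tested. All 17 macrophage identity genes are red, 16 of 18 epithelial identity genes are blue, and all 11 tested MHC class I genes are grey.

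The genes with the smallest *P* and no overlap between groups give the extremes. On the macrophage side these were *Retnla*, *Lyz1*, *Ighm*, *Mrc1*, *Mgl2*, *Pf4*, *Cd209g*, *Rac2*, *Myo1f* and *Cd53*. *Retnla* (ENSMUSG00000061100; chromosome 16, 48842551 to 48844461), a secreted protein of alternatively activated macrophages, was at 1082 and 970 CPM in macrophages and at 0.120 and 0.0409 CPM in MECs, or 3 and 1 counts (log2 fold change 13.53 ± 0.40, adjusted *P* = 6.09e-07). By mean TPM it ranked 15 of all genes in macrophages, next to *Krt18*. *Rac2*, *Myo1f* and *Cd53* are genes of blood cells in general. *Lyz1* and *Lyz2* are neighboring copies, so that reads of sequence common to both could not be assigned.

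On the MEC side the genes were *Gm49428*, *Krt6a*, *Aqp3*, *S100a6*, *Wfdc18*, *Plet1os*, *Prss22*, *Cxcl14*, *Osgin1* and *Krt4*. *Aqp3*, a channel for water and glycerol, was at 109 and 138 CPM in MECs and at 2.83 and 3.62 CPM in macrophages (log2 fold change -5.25 ± 0.29, adjusted *P* = 2.18e-05). *Krt6a*, a keratin of stressed and progenitor-type epithelium, was at 599.5 and 589 CPM against 20.2 and 13.5 CPM (log2 fold change -5.14 ± 0.28, adjusted *P* = 2.02e-05). *S100a6*, a calcium-binding protein gene, was at 1005 and 909 CPM against 82.1 and 67.7 CPM (log2 fold change -3.68 ± 0.23, adjusted *P* = 4.17e-05). For *Krt6a* and *Aqp3*, the mean level in macrophages was far below the 30.5% of the whole epithelial list, at 2.83% and 2.61% of MECs. *Gm49428* overlaps *Krt6a* on the opposite strand over 61.6% of its exon bases and *Plet1os* overlaps *Plet1* over 21.0%. Over 61 to 67 pairs of genes on opposite strands the libraries held 1.56 to 1.62 antisense counts per base for each sense count at the median, so the reads of such partners cannot be told apart.

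Several genes were among the 10 with the highest mean TPM in both cell types: *Gm37376*, whose exons lie wholly within *Malat1* on the opposite strand, *Actb*, *Gpx3*, *Fos*, *mt-Cytb* and *mt-Nd1*. None of them was called. *Fos*, an immediate early gene, was at 6211 and 7515 CPM in macrophages and at 7740 and 8778 CPM in MECs. Of 18 immediate early and dissociation stress genes, all tested, 4 (*Egr1*, *Dusp1*, *Zfp36* and *Hspa1b*) were higher in macrophages, 1 (*Atf3*) in MECs and 13 were not called, beside 28.2% of all genes called in either direction. The *Hspa1b* call was lost with DESeq2's or upper-quartile scaling, with thinned counts, in a fit of all 10 libraries and without MEC 1 (log2 fold change 0.51) or MEC 3 (0.91). *Egr1* was at 4642 and 6169 CPM against 1939 and 2616 CPM (log2 fold change 1.25 ± 0.30, adjusted *P* = 0.0168), and *Atf3* was at 2348 and 2889 CPM in MECs and at 1220 and 1245 CPM in macrophages (log2 fold change -1.09 ± 0.24, adjusted *P* = 0.0125). These calls were lost without MEC 1 (*Egr1*, log2 fold change 1.05) and without MEC 3 (*Atf3*, -0.93). The digestions differed between the cell types, and the part of digestion in these levels was not tested. Of 15 housekeeping genes 9 were not called, among them *Actb* at 11996 and 11592 CPM against 13348 and 11020 CPM, while 4 were higher in MECs (*Eef1a1*, *Rplp0*, *Ywhaz* and *Ppia*).

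Markers of other cell types were read in the same way. All 8 endothelial and all 7 pericyte genes were higher in macrophages. *Pecam1* (CD31) was at 508 and 563 CPM in macrophages and at 51.1 and 40.8 CPM in MECs (log2 fold change 3.54 ± 0.23, adjusted *P* = 4.62e-05). *Rgs5*, of pericytes, was at 300 and 371 CPM and at 7.58 and 6.22 CPM (log2 fold change 5.6 ± 0.26, adjusted *P* = 1.09e-05). The endothelial list summed to 1784 and 1969 CPM in macrophages and to 169 and 127 CPM in MECs, and the pericyte list to 641 and 706 CPM and to 133 and 109 CPM. These sums moved with the macrophage group, and their part in the genes called higher in macrophages was not tested.

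Fibroblast genes were in both cell types at similar summed levels (7138 and 6656 CPM in macrophages, 6563 and 5548 CPM in MECs). *Col1a1* was at 1864 and 1704 CPM in macrophages and at 2488 and 1809 CPM in MECs and was not called. Of the 8 fibroblast genes, *Col3a1*, *Pdgfra* and *Dpt* were higher in macrophages and *Pdpn*, which basal epithelial cells also carry, in MECs. The adipocyte gene *Fabp4*, which endothelial cells and macrophages also express, was at 403 and 522 CPM against 30.1 and 31.9 CPM. *Adipoq*, the defining adipocyte hormone, was at 2.83 and 2.0 CPM against 0.0401 and 0.0819 CPM.

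Markers of other leukocytes were mostly at low levels. Of the B cell genes, *Ighm*, the heavy chain of IgM, was at 166 and 177 CPM in macrophages and at 0.120 and 0.123 CPM in MECs (log2 fold change 10.40 ± 0.35, adjusted *P* = 1.57e-06), while the defining genes *Ms4a1* and *Pax5* had 0 counts in both macrophage libraries. *Cd79b*, a chain of the B cell receptor, was called higher in macrophages, at 5.01 and 4.90 CPM against 1.08 and 0.409 CPM. The sum of the B cell list, 174 and 182 CPM in macrophages, was therefore almost that of *Ighm*. Of the dendritic cell genes, 6 of 7 were tested and higher in macrophages. In macrophages *Cd209a* was at 121 and 190 CPM. The transcription factor *Zbtb46* was at 25.7 and 35.8 CPM against 2.04 and 2.95 CPM, and *Ccr7* at 7.28 and 5.61 CPM against 0.401 and 0 CPM. *Flt3*, *Xcr1* and *Clec9a* were between 1.52 and 5.61 CPM in macrophages. All 4 tested mast cell genes were higher in macrophages, where the list summed to 50.6 and 64.2 CPM. These 4 and 5 of the 6 dendritic cell genes passed the filter through macrophages alone, where they had to be higher. Neutrophil, eosinophil and T and natural killer cell lists summed to between 5.19 and 30.5 CPM in macrophages, and *Cd3d*, *Cd3e*, *Cd3g*, *Cd8a*, *Ly6g*, *S100a8*, *S100a9* and *Epx* were below the filter. Their tested members *Csf3r* (28.5 and 17.2 CPM against 0 and 0.0819 CPM), *Siglecf*, *Ccr3* and *Cd4* (1.67 and 2.52 CPM against 0.2 and 0 CPM) were called higher in macrophages. Each of them had passed the filter through macrophages alone. *Trbc2*, a T cell receptor constant gene that passed the filter through MECs alone, was higher in MECs, at 6.94 and 9.99 CPM against 0.0506 and 0.618 CPM.

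Pairs of ligands and receptors were read for which cell type held the higher level of each gene. Of 36 pairs, 5 had the ligand called higher in MECs and the receptor in macrophages: *Csf1* and *Csf1r*, *Cx3cl1* and *Cx3cr1*, *Vegfa* and *Kdr*, *Vegfa* and *Nrp1*, and *Dll1* and *Notch2*. *Vegfa* had a log2 fold change of -1.59 (QL test, adjusted *P* = 0.0273). The calls of *Vegfa*, *Dll1* and *Notch2* were each lost in at least 1 fit with a library left out. *Csf1*, the growth factor for macrophages, was at 185 and 137 CPM in MECs and at 72.3 and 67.4 CPM in macrophages (log2 fold change -1.20 ± 0.22, adjusted *P* = 0.00607). *Cx3cl1* was at 404 and 377 CPM in MECs and at 165 and 136 CPM in macrophages (log2 fold change -1.38 ± 0.20, adjusted *P* = 0.00228), and *Cx3cr1* at 12.4 and 6.38 CPM in macrophages and at 0.441 and 0.368 CPM in MECs (log2 fold change 4.51 ± 0.64, adjusted *P* = 0.00194). *Il34*, the other ligand of the CSF1 receptor, was on the macrophage side, at 33.2 and 28.6 CPM against 12.8 and 10 CPM. The *Il34* call was also lost in at least 1 fit with a library left out. The receptor *Kdr* is also in the endothelial list, whose 8 genes were all higher in macrophages. The part of endothelial RNA in the *Kdr* and *Nrp1* calls was not tested.

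The opposite orientation was met by 1 pair, *Osm* and *Osmr*. *Osm*, a cytokine of the interleukin-6 family, was at 23.6 and 41.5 CPM in macrophages and at 0.0401 and 0.123 CPM in MECs (log2 fold change 8.55 ± 0.63, adjusted *P* = 3.13e-05), and its receptor *Osmr* was at 264 and 316 CPM in MECs and at 125 and 161 CPM in macrophages (log2 fold change -1.02 ± 0.22, adjusted *P* = 0.0110). The *Osmr* call was lost without MEC 3 (log2 fold change -0.89) and in a fit of all 10 libraries (-0.99). In 7 pairs both genes were higher in macrophages, such as *Ccl2* and *Ccr2*, *Cd47* and *Sirpa*, and *Il1b* and *Il1r1*. The EGF receptor ligands *Areg*, *Hbegf* and *Tgfa* were higher in MECs, with log2 fold changes of -1.57, -1.25 and -2.82, while *Egfr* was not called at 54.1 and 43.1 CPM in MECs and at 36.9 and 45.0 CPM in macrophages. *Met* was higher in MECs (46.2 and 70.0 CPM against 13.3 and 14.1 CPM) and its ligand *Hgf* was not called. RNA levels of a ligand and a receptor do not show that the proteins met.

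**Figure D5:**
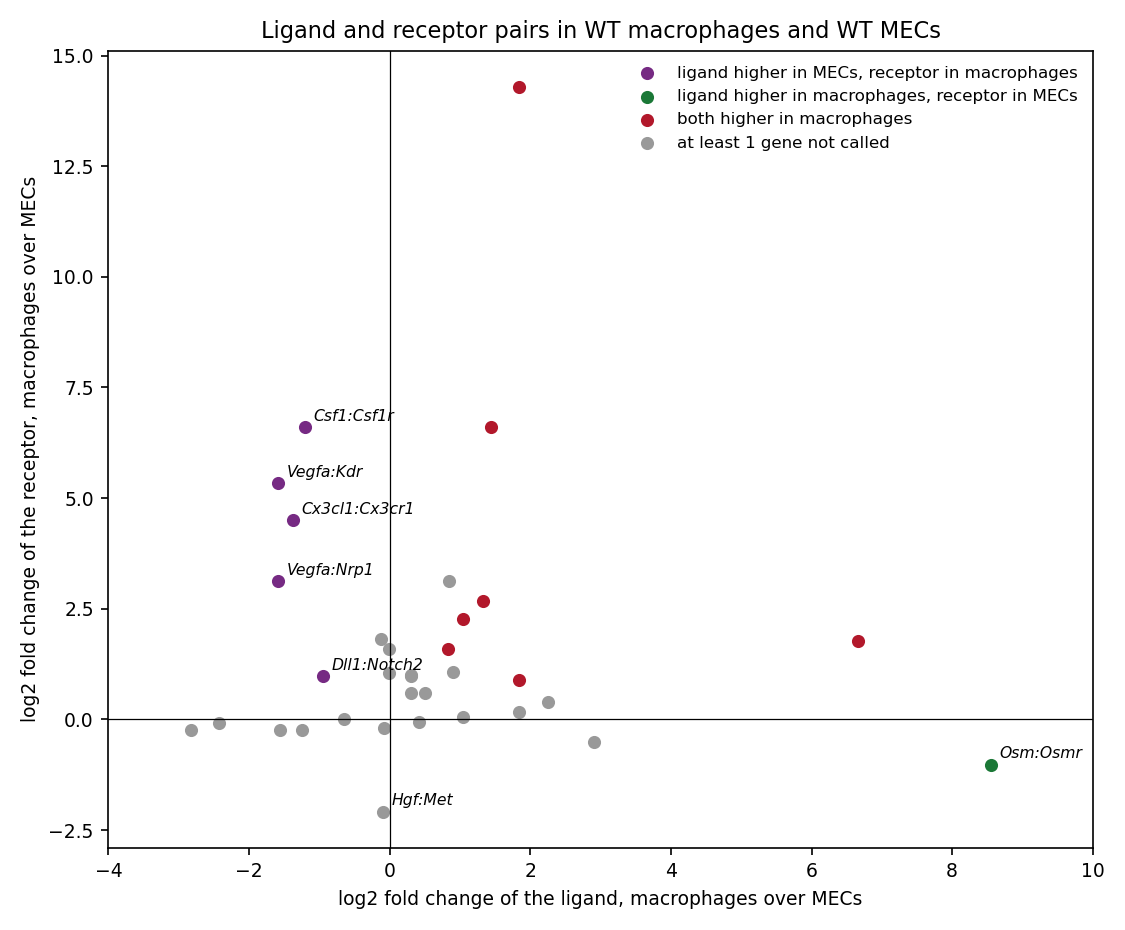
Log2 fold change, macrophages over MECs, of the ligand (x axis) and of the receptor (y axis), 1 point for each pair in which both genes were tested. The 5 pairs in the upper left (purple) have the ligand higher in MECs and the receptor in macrophages, and *Osm* with *Osmr* (green) is the single pair with the opposite calls.

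Of 19 Wnt ligand genes 10 were tested, 2 were higher in macrophages (*Wnt2* and *Wnt10b*), 4 in MECs (*Wnt5b*, *Wnt7b*, *Wnt9a* and *Wnt10a*) and 4 were not called. Over all genes tested, 16.2% were called higher in macrophages and 12% in MECs. Of the 10, 1 passed the filter through macrophages alone and 1 through MECs alone. The calls of *Wnt9a* and *Wnt10b* were each lost in at least 1 fit with a library left out. *Wnt10a* was at 21.5 and 18.9 CPM in MECs and at 3.03 and 1.86 CPM in macrophages (log2 fold change -3.05 ± 0.39, adjusted *P* = 0.00112). *Wnt2* was at 15.8 and 13.6 CPM in macrophages and at 2.53 and 2.70 CPM in MECs (log2 fold change 2.49 ± 0.37, adjusted *P* = 0.00230). *Wnt4*, a target of progesterone, was at 38.6 and 33.5 CPM in macrophages and at 30.0 and 24.2 CPM in MECs and was not called, although the groups did not overlap. *Wnt5a* was at 39.9 CPM in macrophages 4 and 151 CPM in macrophages 5, on either side of the MECs (105 and 96.5 CPM). Of 15 Frizzled, LRP and ROR receptor genes 12 were tested. Of these, *Fzd4* (76.1 and 119 CPM against 14.4 and 12.5 CPM) and *Lrp6* were higher in macrophages, a share near the 16.2% of all genes tested. The *Lrp6* call was lost in at least 1 fit with a library left out. Endothelial genes were also higher in macrophages, and their part in the *Fzd4* call was not tested.

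Of 9 Notch genes 8 were tested, and 5 were higher in macrophages: *Notch2*, *Notch3*, *Notch4*, *Dll4* and *Jag2*. Over all genes tested this share was 16.2%. The calls of *Notch2*, *Notch3*, *Notch4* and *Jag2* were each lost in at least 1 fit with a library left out. *Notch2* had mean levels of 137 CPM in macrophages and 69.5 CPM in MECs, and *Notch3* 131 and 65.8 CPM. *Notch3* is also a pericyte marker here. All genes of the endothelial and pericyte lists were higher in macrophages. The part of endothelial and pericyte RNA in the Notch calls was not tested. *Dll1* was the gene higher in MECs, at 190 and 133 CPM against 77.9 and 90.4 CPM (log2 fold change -0.94 ± 0.24, adjusted *P* = 0.0206), a call lost without MEC 1 (log2 fold change -0.66). *Notch1* and *Jag1* were not called.

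The same contrast was made in libraries that the WT contrast does not hold, those of *Cebpb* dM macrophages 4 to 7 against *Cebpb* dM MEC 1 and 3. There 36.5% of 17638 genes were called, 3651 higher in macrophages and 2785 in MECs. Of the WT calls, 4625 were tested in these libraries and 4561 (98.6%) had the same direction, 3761 of them with a call, while 1 was called in the opposite direction. *Krt8* and *Krt18* had log2 fold changes of -2.71 (adjusted *P* = 1.98e-05) and -2.46 (adjusted *P* = 3.58e-05) there. Whether the contrast differed between genotypes was tested with an interaction term in a fit of the 10 libraries. The QL test called 0 of 18321 genes (0%), with 962 at an unadjusted *P* under 0.05, while the likelihood ratio test called 53 and DESeq2 27.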

How the data were processed

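RNA from WT macrophages and MECs (2 libraries each) was sequenced with paired ends. The authors trimmed reads with Trimmomatic, mapped them to GRCm38 with HISAT2 and counted them on Ensembl release 100 genes with featureCounts 1.6.2, at a mapping quality of at least 10 and set to reverse-stranded libraries. The trimming and mapping tools are credited to the submitters' processing notes. Each deposited value is a raw count of reads for 1 gene in 1 library. Reads under the mapping quality of 10 were not counted. *Gapdh* had mean levels of 20.5 CPM in macrophages and 25.1 CPM in MECs, and whether this filter lowered them was not tested.

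The tables hold 55487 genes each, and 8951 under 300 nt were left out. Counts were fitted with edgeR 4.0.16 in R 4.3.3 (TMM, QL test), without covariates. The study's methods name the likelihood ratio test, which was run as an alternative beside DESeq2 1.42.0, other scalings, filters, thresholds and libraries left out. Tables and figures used pandas 2.3.3 and Matplotlib 3.10.9 in Python 3.11.15.

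Genes named are the members of lists and pairs, in each direction the 10 called genes of lowest *P* whose groups did not overlap, and the 10 with the highest TPM in each cell type. The libraries, lists, pairs and motifs were chosen with earlier results of these data known, and marker lists are descriptions without set tests. Levels at 0 in one cell type give a lower bound against 3 counts per library. No protein sequences were used here. A few members of the lists are counted but not reported here by name.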

Additional observations from a re-analysis of the deposited data

How the results depend on the processing

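The calls (2708 higher in macrophages, 2003 in MECs) ranged from 1340 to 3821 and from 989 to 3392 when 1 library was left out, with the lowest counts without a MEC library and the highest without WT macrophages 4. Among list genes (161 and 91) these ranges were 122 to 169 and 69 to 106. With 1 library left out, the lone library of its cell type is assumed to vary as the other pair does. A filter of 1 count in any library, which tests 30555 genes, gave 1145 and 729 calls (107 and 56 list genes). An adjusted *P* of 0.01 gave 1456 and 857, and a test against a minimum fold 1377 and 614, with 45 list genes higher in MECs. Requiring over 1 CPM in each cell type left 105 list genes higher in macrophages. Library totals alone gave 3302 and 1495 calls, and leaving out genes that overlap the opposite strand by 20% or more, chosen after seeing the data, 2487 and 1821. The other settings kept these counts within 1.5 times. For the genotype interaction, 0 calls became 53 with the likelihood ratio test and 27 with DESeq2. The causes were not tested.

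Of the 190 named genes with a call, 37 lost it without WT MEC 1 and 43 without WT MEC 3, 27 of them in both, and 0 changed direction in any setting. Outside libraries left out, 6 genes not called gained a call (*Cebpz* and *Klf2* under 4 settings each, *Hba-a1* under 2, and *C3*, *Cd55* and *Prlr* with DESeq2), and 73 called genes lost it under at least 1 setting, stricter thresholds included. The 15 genes that changed direction were not called. Their log2 fold changes became, with DESeq2 *Cxcl1* -0.012, *Tlr4* -0.022, with DESeq2's size factors in edgeR *Cxcl1* -0.012, *Tlr4* -0.022, without TMM *Actb* 0.13, *Cd59a* 0.11, *Gas6* 0.15, *Hgf* 0.083, *Klf4* 0.10, *Lamp2* 0.11, *Myd88* 0.056, *Wnt5a* 0.084, with upper-quartile scaling *Cxcl1* -0.022, *Tlr4* -0.035, with edgeR's own filter *Cxcl1* -0.0069, *Tlr4* -0.021, with 1 count in any library *Cxcl1* -0.053, *Fasn* -0.023, *Tlr4* -0.067, with over 1 CPM in each cell type *Gas6* 0.026, with thinned counts *Tlr4* -0.0055, and in a fit of all 10 libraries *Gas6* 0.015. Over libraries left out, they ran from -0.18 to 0.10 for *Actb*, -0.49 to 0.26 for *Cd59a*, -0.29 to 0.41 for *Cxcl1*, -0.65 to 0.064 for *Esr1*, -0.26 to 0.35 for *Fasn*, -5.80 to 1.19 for *Foxi1*, -0.39 to 0.27 for *Gas6*, -0.98 to 0.019 for *Gpx3*, -1.03 to 0.46 for *Hgf*, -0.49 to 0.29 for *Klf4*, -0.23 to 0.13 for *Lamp2*, -0.25 to 0.022 for *Myd88*, -0.76 to 0.27 for *Mylk*, -0.29 to 0.23 for *Tlr4* and -1.37 to 0.58 for *Wnt5a*. No paired analysis was possible because the macrophage libraries (4 and 5) and the MEC libraries (1 and 3) share no replicate number. Depth limits a gene at 0 to 0.113 to 0.163 CPM, and reads of genes that overlap on opposite strands cannot be told apart.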

Other observations

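Of 15 glycolysis genes, all tested, 12 were not called. Over all genes tested, 28.2% were called in either direction and 12% higher in MECs. *Slc2a1*, the glucose transporter GLUT1, was at 653 and 582 CPM in MECs and at 153 and 148 CPM in macrophages (log2 fold change -2.04 ± 0.20, adjusted *P* = 0.000341), and *Hk2* was also higher in MECs. *Hk3*, a hexokinase of myeloid cells, was at 29.4 and 42.0 CPM in macrophages and at 0 and 0.123 CPM in MECs (log2 fold change 9.07 ± 0.66, adjusted *P* = 2.36e-05). Of 17 cholesterol synthesis genes, all tested, 3 (*Sqle*, *Cyp51* and *Msmo1*) were higher in MECs and 14 were not called. Of 12 fatty acid synthesis genes, 4 (*Me1*, *Fads2*, *Srebf1* and *Fads1*) were higher in MECs, 1 (*Elovl5*) in macrophages, and *Fasn* was not called at 172 and 117 CPM against 165 and 113 CPM.

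Of 16 genes of DNA replication and mitosis, all tested, *Mcm3* was higher in macrophages and 15 were not called. Over all genes tested, 16.2% were called higher in macrophages. The fitted log2 fold change was above 0 for 15 of the 16, with a median of 0.83 beside 0.03 over all genes tested. The replicates stood apart within both cell types. The list summed to 789 CPM in macrophages 4 and 436 CPM in macrophages 5, and to 450 CPM in MEC 1 and 301 CPM in MEC 3. *Mki67* was at 29.8 and 13.7 CPM in macrophages and at 17.6 and 6.75 CPM in MECs, with overlapping groups. The hemoglobin gene *Hba-a1* was at 84.7 CPM in macrophages 4 and between 14.9 and 17.9 CPM in the other libraries, and the 5 tested erythroid genes were not called by the QL test (0 calls, with 2 at an unadjusted *P* under 0.05, against 2 calls by the likelihood ratio test and 1 by DESeq2).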
